A study of Mus musculus with 2 samples.

Results

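The amyloid precursor protein gene App, its relatives Aplp1 and Aplp2, the adaptor genes Apbb1 and Apbb2, the gene of the membrane protein ITM2B, and Thy1 were followed in the heart. These 7 genes were taken by name and identifier from the 55536 genes of the tables, and all 7 were found. The data were total RNA sequencing of heart tissue of adult female 5xFAD/CAST mice aged 8 to 10 months, from 300 ng of RNA per library with added ERCC spike-in RNAs. Both libraries belonged to 1 group, replicates 1 and 2, so there was no control genotype and no contrast between conditions, and no p-value is given. The replicates had separate biosamples under 1 donor identifier, and every SD below is therefore no more than the spread of these libraries. Expected counts, the estimated reads per gene, summed to 45599940.0 in replicate 1 and to 40801299 in replicate 2.

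5xFAD mice carry mutant human transgenes, APP among them, driven by the mouse Thy1 promoter, which was chosen for its activity in neurons. CAST is a wild-derived inbred strain, and the sequences below are those of the mouse reference genome. The labels did not state whether each animal carried the transgenes. Whether reads of the human APP transgene were counted under mouse App, or reads of the transgene cassette under Thy1, was not tested.

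APP is a membrane-spanning protein that is cut outside the membrane by alpha- or beta-secretase and then inside it by gamma-secretase, which releases amyloid-beta peptides when beta-secretase has cut first. APLP1 and APLP2 share its overall build but lack the amyloid-beta sequence. App and Aplp2 transcripts differ by cassette exons, one of which codes for a Kunitz-type inhibitor of serine proteases, and neurons mainly use App transcripts without it. The adaptors FE65 (gene Apbb1) and FE65-like 1 (gene Apbb2) bind the cytoplasmic tail of all 3 family members. ITM2B, also called BRI2, is a BRICHOS-domain protein that binds APP. THY1 is a glycolipid-anchored surface protein of neurons, T cells and some fibroblasts.

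The exons that set the transcript forms of App and Aplp2 are shown first, because the levels of the forms turned on them. All sequences are written 5′ to 3′ on the coding strand, with coordinates on mm10, and each of these 5 exons has a length that is a multiple of 3. The Kunitz exons are exon 7 of App (168 bases, chr16:85043576-85043743, minus strand) and exon 7 of Aplp2 (168 bases, chr9:31167561-31167728, minus strand), and 114 of their 168 bases (67.9%) were identical when set side by side without gaps.
App Kunitz exon: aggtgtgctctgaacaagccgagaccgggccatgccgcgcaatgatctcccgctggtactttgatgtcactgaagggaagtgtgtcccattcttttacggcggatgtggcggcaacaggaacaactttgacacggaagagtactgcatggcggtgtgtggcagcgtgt
Aplp2 Kunitz exon: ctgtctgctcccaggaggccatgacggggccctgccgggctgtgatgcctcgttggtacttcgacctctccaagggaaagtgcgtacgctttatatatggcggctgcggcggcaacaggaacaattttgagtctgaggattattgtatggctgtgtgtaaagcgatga
Exon 8 of App (57 bases, chr16:85040251-85040307, minus strand) codes for a short stretch named OX2, and exon 15 of App (54 bases, chr16:84971408-84971461, minus strand) and exon 14 of Aplp2 (36 bases, chr9:31156190-31156225, minus strand) are the exons whose skipping creates a site where chondroitin sulfate is attached.
App OX2 exon: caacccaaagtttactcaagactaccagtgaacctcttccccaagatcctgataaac
App 54-base exon: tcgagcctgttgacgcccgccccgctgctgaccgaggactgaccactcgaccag
Aplp2 36-base exon: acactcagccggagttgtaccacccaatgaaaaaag

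The last coding bases of the 3 family members are shown because they code for the tail that APBB1 and APBB2 bind. Capitals mark the 12 bases that code for its NPTY motif, and the stop codon is left out. They lie in the last exon of App (99 bases, chr16:84955334-84955432), of Aplp1 (96 bases, chr7:30435296-30435391) and of Aplp2 (99 bases, chr9:31150874-31150972), all on the minus strand.
App coding end: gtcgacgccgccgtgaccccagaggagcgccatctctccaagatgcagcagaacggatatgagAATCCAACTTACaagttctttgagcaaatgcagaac
Aplp1 coding end: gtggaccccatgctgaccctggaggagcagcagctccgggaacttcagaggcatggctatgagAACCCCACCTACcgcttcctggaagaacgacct
Aplp2 coding end: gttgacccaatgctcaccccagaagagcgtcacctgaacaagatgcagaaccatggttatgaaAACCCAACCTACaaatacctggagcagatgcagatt
Set side by side from the first base without gaps, App and Aplp2 were identical at 70 of 99 bases (70.7%), Aplp1 and Aplp2 at 62 of 96 (64.6%), and App and Aplp1 at 58 of 96 (60.4%).

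On mm10, App lies at chr16:84949685-85173766, Aplp1 at chr7:30434982-30445535, Aplp2 at chr9:31149557-31211815, Apbb1 at chr7:105558483-105581653, Apbb2 at chr5:66298703-66618784 and Itm2b at chr14:73362226-73385289, all on the minus strand. Thy1 lies at chr9:44043384-44048579 on the plus strand.

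All 7 genes were detected in the heart, and they spanned a wide range of levels. Levels are given in TPM, a transcript's share of the endogenous RNA molecules of a library, which allows genes of different length to be compared. Scaled to the TPM of nuclear protein-coding genes alone, the levels below would be 2.94 to 2.95 times as high. At least 1 TPM in both libraries was reached by 7 of 7 of these genes, against 48.9% of all nuclear protein-coding genes. In such bulk tissue, fewer cells of a type and less RNA per cell cannot be told apart. The order from high to low was Itm2b, Aplp2, Apbb1, App, Apbb2, Thy1 and Aplp1. Of its 6 pairs of neighbours, 5 had ranges over the 2 libraries that did not overlap, and Apbb1 and App did overlap.

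Among the precursor family, Aplp2 stood highest. Its level was 98.7 TPM in replicate 1 and 103.0 TPM in replicate 2 (100.8 ± 3.04 TPM, SD, n = 2), which placed it at rank 496 of the 10771 detected nuclear protein-coding genes. App, the gene of the amyloid precursor itself, was at 39.0 and 41.0 TPM (rank 1225). Aplp1, which is known mainly from the nervous system, was at 1.20 and 1.34 TPM (1.27 ± 0.0991 TPM, SD, n = 2; rank 10565), just above the detection limit of 1 TPM. The libraries lay close together for each of these genes, and the 3 genes did not overlap. Of the summed TPM of the family, Aplp2 held 71.1% and 70.9%, App 28.1% and 28.2%, and Aplp1 0.862% and 0.920%. Aplp2 thus made up the larger part of the family's RNA in both libraries, and its share was 67.6% and 66.8% in the direct tables, which were made from the same reads by a different quantification.

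The adaptor Apbb1 was at 45.2 and 40.2 TPM (42.7 ± 3.51 TPM, SD, n = 2; rank 1120), above App in replicate 1 and below it in replicate 2. Apbb2 was at 15.1 and 12.9 TPM (14.0 ± 1.53 TPM, SD, n = 2; rank 3436), below Apbb1 in both libraries. Both adaptor genes lay above 7.79 TPM, the median of the whole-gene levels of the detected nuclear protein-coding genes. Coding transcripts of Apbb2 alone summed to 6.84 and 6.10 TPM, which is under that value.

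Itm2b had the highest level of the 7 genes, at 269.8 and 255.6 TPM (262.7 ± 10.1 TPM, SD, n = 2; rank 191), and was 2.73 and 2.48 times as high as Aplp2 in the same libraries. This ratio was 4.66 and 4.33 in the direct tables and, on protein-coding transcripts, 1.51 and 1.46 in the alignment-based and 0.997 and 0.984 in the direct tables. Thy1 was at 4.00 and 4.86 TPM (rank 7337) and so below the median of the detected genes, with expected counts of 234 and 209. Thy1 and Aplp1 rested on the fewest reads, Aplp1 on 104 and 80 expected counts, and their bounds were wide beside their levels. The credibility bounds that the authors deposited ran from 3.78 to 5.44 TPM in replicate 1 and from 4.15 to 6.68 TPM in replicate 2 for Thy1. Those of Aplp1 ran from 1.17 to 2.23 and from 1.10 to 2.46 TPM. The bounds of the 2 libraries overlapped for both genes.

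**Figure D1:**
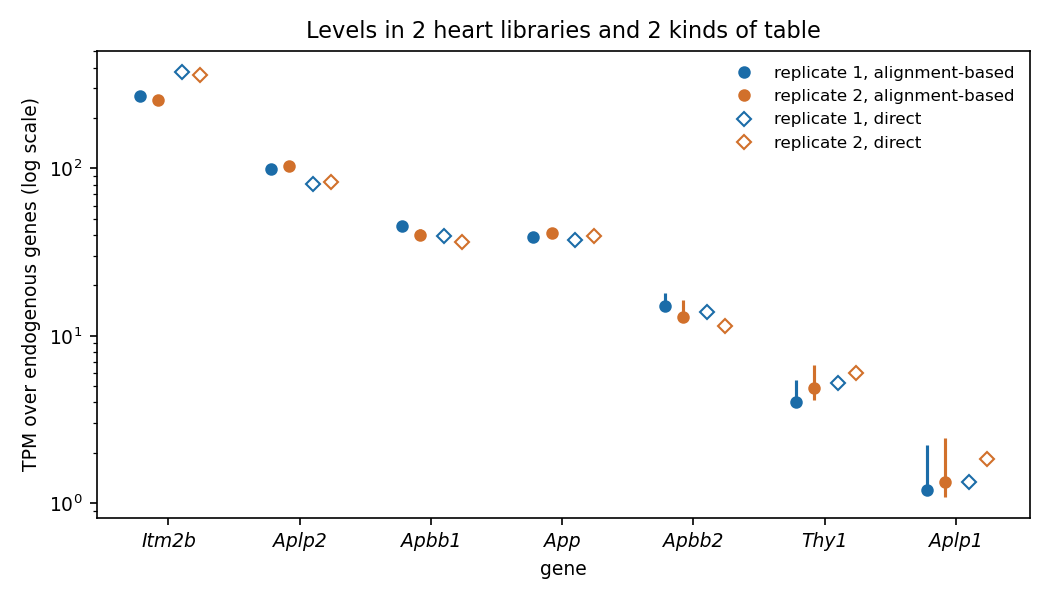
Levels of the 7 genes in TPM on a log axis, with 1 point per library (blue, replicate 1; orange, replicate 2). Filled circles are the alignment-based gene tables with the authors' credibility bounds as vertical lines, which are shorter than the symbol for the higher genes, and open diamonds are the direct tables; Itm2b is highest and Aplp1 lowest in both kinds of table, and the points of Apbb1 and App lie side by side.

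Markers of the cell types in which these genes are best known were read beside the levels. Of 10 neuron markers, 2 reached 1 TPM in both libraries (Uchl1 at 2.77 ± 0.269 and Stmn2 at 2.49 ± 0.506 TPM, SD, n = 2), Th was at 0 counts in both, and the list summed to 6.60 and 5.74 TPM. Of 8 T cell markers, 0 reached 1 TPM in both libraries, and the list summed to 1.43 and 1.04 TPM. Of 6 Schwann cell and glia markers, 1 reached it (Cdh19, 1.42 ± 0.184 TPM, SD, n = 2), with sums of 4.04 and 3.44 TPM. Neuron and T cell markers were thus low in sum beside the fibroblast list, of which 6 of 6 reached 1 TPM with sums of 172 and 194 TPM. Most of these sums lay on Dcn (119 ± 5.71 TPM, SD, n = 2). The lowest fibroblast marker, Tcf21 (3.07 ± 0.108), stood near Uchl1, and the lists differ in length. Lists for lymphatic endothelium, blood endothelium, smooth muscle and pericytes, and macrophages summed to between 28.4 and 159 TPM per library. The lowest sums were those of the lymphatic list (28.4 and 31.1 TPM), of which Prox1 alone held 17.3 and 19.3 TPM. The heart label was met by cardiomyocyte markers, of which 5 of 5 lay between 366 and 7725 TPM. Which of these cells held the Thy1, App or Aplp1 RNA was not tested.

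No gene of the 7 differed strongly between the libraries. Folds were taken from expected counts scaled to a common library size, replicate 2 over replicate 1, with a 95% interval that covers counting error only. Of the 7 genes, 0 lay at least 2-fold apart, against 0.568% of the 12492 genes whose mean count reached 50. They split into 3 higher and 4 lower in replicate 2, and into 6 higher and 1 lower when the libraries were scaled by their spike-in totals, which shifted the median log2 ratio of all genes by 0.22. Their median absolute log2 ratio was 0.065, against 0.11 over all tested genes.

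App had 4772 and 4310 expected counts and a fold of 1.00 (0.961 to 1.04), and Aplp2 had 10429 and 9665 and a fold of 1.03 (1.00 to 1.06). The 2 main family members were therefore near equal in both libraries under this scaling, and with spike-in scaling their log2 ratios were 0.22 and 0.26. Apbb1 had 2435 and 1956 expected counts and a fold of 0.891 (0.839 to 0.946), and Itm2b had 12427 and 10368 and a fold of 0.925 (0.901 to 0.950). These 2 intervals lay below 1 under this scaling, but with spike-in scaling the log2 ratio of Apbb1 turned from -0.17 to 0.053 and that of Itm2b from -0.11 to 0.11, so no direction is given for either gene. Of all tested genes, 32.8% had a log2 ratio at least as far from 0 as that of Apbb1. Apbb2 (1991 and 1878 counts) had a fold of 1.05 (0.982 to 1.11), Thy1 of 0.991 (0.818 to 1.20) and Aplp1 of 0.853 (0.629 to 1.15). Their intervals held 1 under this scaling. With spike-in scaling the log2 ratios were 0.28 for Apbb2, 0.20 for Thy1 and -0.0089 for Aplp1, and no intervals were taken there.

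**Figure D2:**
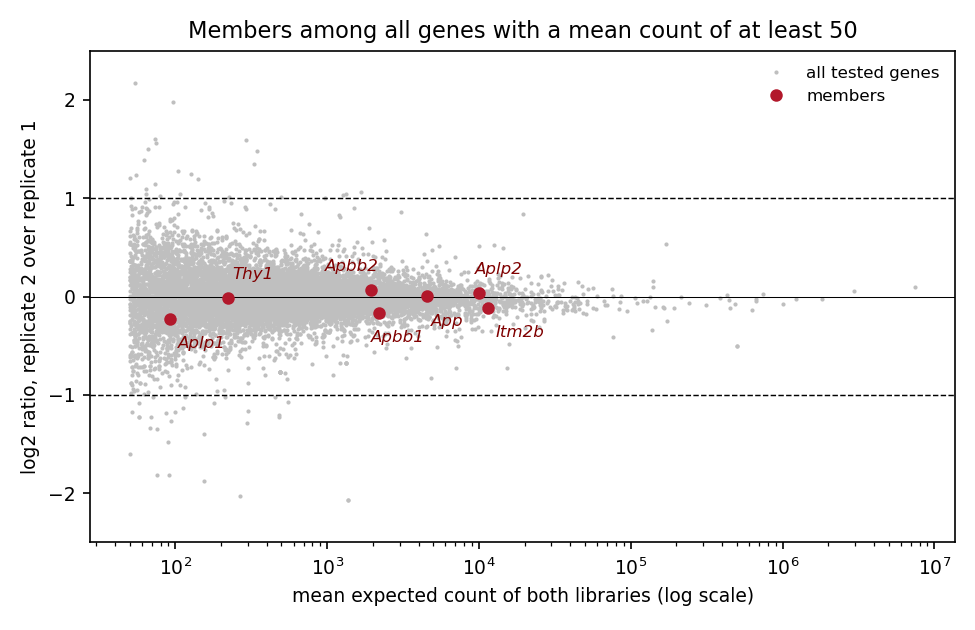
The log2 ratio of replicate 2 over replicate 1 against the mean expected count (log axis) for every gene whose mean count reached 50 (grey) and the 7 members (red), with dashed lines at 2-fold. The members lie inside the cloud at every count, with Aplp1 lowest at a log2 ratio of -0.22.

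For 3 genes the ratio of TPM ran the other way from the ratio of counts. TPM divides counts by the effective length of a gene, which the deposited tables take as a mean over its transcripts weighted by their estimated abundance. The Thy1 TPM ratio was 1.21 while its count fold was 0.991, and its effective length was 1508 bases in replicate 1 and 1289 bases in replicate 2. The Aplp1 TPM ratio was 1.12 against a count fold of 0.853, with effective lengths of 2243 and 1798 bases. The Apbb2 TPM ratio was 0.857 against a count fold of 1.05, with effective lengths of 3406 and 4359 bases. In each case the direction of the TPM ratio was opposite to that of the effective length. For App the effective lengths were 3155 and 3150 bases, and its TPM ratio of 1.05 lay near its count fold.

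App transcripts in the heart mostly held the Kunitz exon. Transcripts holding it took 87.1% of App TPM in replicate 1 and 91.6% in replicate 2 (89.3% ± 3.15, SD, n = 2), and 89.5% and 91.8% in the direct tables. The main transcript was App-203, which codes for 752 residues, holds the Kunitz and OX2 exons and skips the 54-base exon. It took 53.7% and 49.8% of App TPM. App-202, of 751 residues, holds the Kunitz and 54-base exons without OX2, and took 31.6% and 39.1%. App-201, the 695-residue form without Kunitz or OX2 that is the main form of neurons, took 11.1% and 7.68%, at 4.33 and 3.15 TPM. The full-length form of 770 residues, App-206, took 1.21% and 1.10%. The 2 libraries thus gave the forms the same order. The 5xFAD APP transgene codes for the 695-residue form of the human protein, and its part in the App-201 values was not tested.

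The OX2 exon was in 55.5% and 52.5% of App TPM, and transcripts skipping the 54-base exon took 54.3% and 50.6%. Both shares rest mainly on App-203, which holds the one and skips the other. In the direct tables they were 54.1% and 53.3% for OX2, and 54.9% and 51.0% for skipping. The kinds of table thus lay within a few percentage points of each other for App.

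Aplp2 also had a majority of Kunitz-coding RNA, but here the size of the share depended on which transcripts were counted. Over all Aplp2 transcripts the Kunitz exon was in 62.0% and 60.2% of TPM (61.1% ± 1.27, SD, n = 2). Over protein-coding transcripts alone it was in 81.3% and 77.2%, and over all transcripts of the direct tables in 74.2% and 76.4%. Part of the gap lay on Aplp2-207, a transcript annotated as retaining an intron, which does not reach the Kunitz exon but adds to the total of Aplp2 in the first of these shares. It took 20.6% and 20.3% of Aplp2 TPM in the alignment-based tables, with 1398 and 1240 expected counts, and was at or near 0 in the direct tables.

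The main Aplp2 transcript was Aplp2-201, of 751 residues, with the Kunitz exon and without the 36-base exon, at 42.1% and 42.9% of TPM (58.0% and 62.3% in the direct tables). Aplp2-203, of 624 residues, which has the Kunitz exon and ends with the 36-base exon, took 19.9% and 17.2%. It is annotated with 14 exons, against 17 in Aplp2-201, and does not reach the coding end shown above. Its last exon, the 36-base exon, is internal in Aplp2-202, and whether reads of longer RNA were counted on Aplp2-203 was not tested. The form without the Kunitz exon, Aplp2-202 of 707 residues, took 11.9% and 16.0%. The 695-residue Aplp2-209, with neither exon, took 2.41% and 1.73%, against 7.09% and 0.432% by direct quantification, so its level was not settled by these libraries. Transcripts skipping the 36-base exon took 44.9% of Aplp2 TPM in both libraries, 58.4% and 57.3% of that on protein-coding transcripts, and 65.7% and 63.0% in the direct tables.

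**Figure D3:**
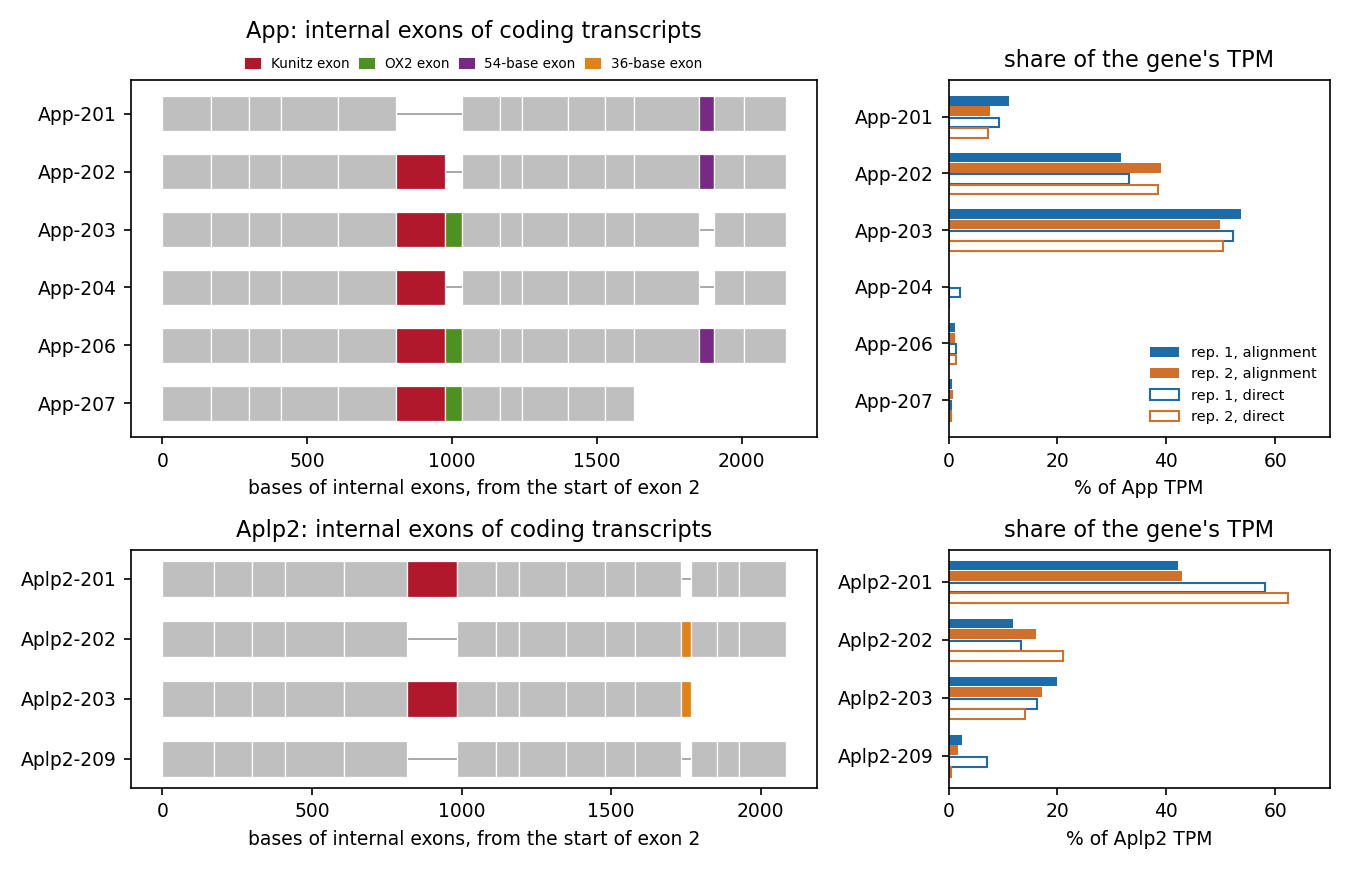
Left, internal exons of the protein-coding transcripts of App and Aplp2, to scale in bases without introns, with first and last exons left out except where the last is the 36-base exon, and with the Kunitz, OX2, 54-base and 36-base exons in colour. Right, the share of the gene's TPM on each transcript in both libraries, in the alignment-based (filled) and direct (open) tables; App-203 and App-202 lead App, and Aplp2-201 leads Aplp2.

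Most Itm2b TPM lay on transcripts not annotated as coding. Itm2b-202, a retained-intron transcript of 935 bases, took 57.8% and 53.8% of Itm2b TPM, and Itm2b-201, which codes for the 266-residue protein, took 41.3% and 44.8%. By expected counts of the alignment-based tables the order was the other way, with 7326 and 6476 counts on the longer Itm2b-201 (1796 bases) and 5046 and 3830 on Itm2b-202. By estimated counts of the direct tables Itm2b-202 led, with 6549 and 5168 against 5703 and 4839 on Itm2b-201. The non-coding Itm2b-205, of 383 bases, was at 0.473 and 1.02 TPM in the alignment-based tables and at 115 and 101 TPM in the direct tables, 30.6% and 28.1% of the gene there. These direct values rested on 939 and 665 of the 13258 and 10752 estimated counts of the gene. The Itm2b level on coding transcripts was 113 and 117 TPM in the alignment-based and 76.1 and 80.0 TPM in the direct tables, so the rank of Itm2b over Aplp2, at 75.2 and 80.2 TPM on coding transcripts, held in the alignment-based tables and not in the direct ones, where Aplp2 had 76.3 and 81.3 TPM.

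By TPM, Apbb1 had no dominant transcript. Apbb1-215, of 451 residues, took 23.0% and 26.3% of its TPM, the retained-intron transcript Apbb1-218 took 26.5% and 19.7%, Apbb1-217, of 708 residues, took 18.5% and 17.2%, and Apbb1-221, of 229 residues, took 16.5% and 16.6%. In the direct tables Apbb1-221 led with 38.3% and 44.0%, followed by Apbb1-217 with 29.3% and 29.5%, and Apbb1-218 took 8.91% and 0. The TPM share of Apbb1-217 thus differed more between the tables than between the libraries. By estimated counts of the direct tables the order was the other way. Apbb1-217 (2712 bases) had 1419 and 1079 of the 2614 and 2054 counts of the gene, and the shorter Apbb1-221 (719 bases) had 372 and 320. On coding transcripts Apbb1 had 33.1 and 32.1 TPM, below the 38.3 and 40.4 TPM of App, which turned the order of these neighbours.

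Apbb2 was led by Apbb2-219, a retained-intron transcript, with 27.8% and 38.6% of its TPM and with 23.9% and 38.3% in the direct tables. Its highest coding transcript by TPM, Apbb2-215 of 760 residues, took 15.5% and 21.1%. By expected counts the longer Apbb2-216 (6540 bases) led the coding transcripts, with 389 and 409 against 297 and 296 on Apbb2-215 (3362 bases). By estimated counts of the direct tables, Apbb2-210 led them in replicate 1 (468) and Apbb2-215 in replicate 2 (374). Coding transcripts of Apbb2 summed to 6.84 and 6.10 TPM, under the level of the whole gene by more than 2-fold in both libraries.

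Thy1-201, which codes for the 162-residue precursor of the surface protein, was at 3.55 TPM in both libraries. It took 88.7% of Thy1 TPM in replicate 1 and 72.9% in replicate 2, where Thy1-203, a non-coding transcript of 449 bases, took 19.0% on only 10.8 expected counts. Thy1-203 was listed at 0 in replicate 1, with an upper bound of 0.862 TPM, and by direct quantification it took 15.3% and 32.8%. In the alignment-based tables the higher Thy1 TPM of replicate 2 thus lay on the short transcript and not on Thy1-201. Aplp1 showed the same split, with 1.20 and 1.02 TPM on its coding transcript Aplp1-201, and 24.1% of the TPM of replicate 2 on the retained-intron transcript Aplp1-202, from 3.99 expected counts. By direct quantification Aplp1-202 took 13.0% and 48.7%.

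**Figure D4:**
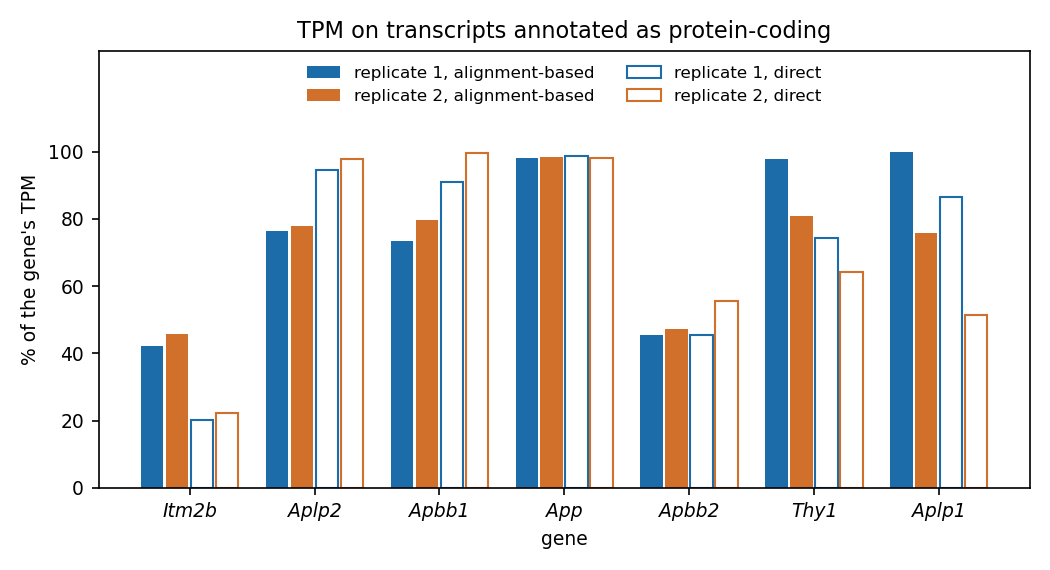
Share of each gene's TPM on transcripts annotated as protein-coding, in percent, for both libraries in the alignment-based (filled) and direct (open) tables. App stands above 98% throughout, Itm2b and Apbb2 below 60% throughout, and Aplp2 and Apbb1 are higher in the direct tables.

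Alignment-based and direct values lay at least 2-fold apart in 0 of 6 members, against 4.03% of 7337 genes. The largest difference among them was that of Itm2b, whose log2 ratio of alignment-based over direct TPM was -0.48 and -0.49, and 8.65% of the genes compared lay at least as far apart. Genes entered this comparison when either kind of table had them at 5 TPM or more in each library, which Thy1 met by its direct values of 5.25 and 6.01 TPM and Aplp1 did not meet. The main transcript differed between the tables in 1 of 6 members (Apbb1), against 16.9% of 6420 protein-coding genes with several transcripts. It was not protein-coding in 2 of 6 (Itm2b and Apbb2), against 7.46% of the same genes. From counts over 6 members, no difference from other genes can be read.

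Little sequence was shared with other genes. Of the 31-base words of their transcripts, 2.07% were shared with another gene for App, 2.69% for Apbb1, 1.18% for Apbb2, 1.26% for Thy1 and 0 for Aplp1, Aplp2 and Itm2b. The antisense gene Gm49227 overlaps App exons by 113 bases and had 0 counts in both libraries. Apbb2 shared 53 of its 133 shared words with Rnf207, which had 1403 and 1050 expected counts. The genes that shared most words with App, Apbb1 and Thy1 had 0 counts. They held 85 of the 271 shared words of App, 128 of 128 of Apbb1 and 26 of 38 of Thy1. Counts of the genes that shared the remaining words were not read.

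Genes of the pathways around these proteins, and relatives of ITM2B, were read from 5 lists. Of these 55 genes, 45 reached 1 TPM in both libraries, against the 48.9% of all nuclear protein-coding genes given above. Of those whose mean count reached 50, 0 lay 2-fold apart between the libraries, against 0.568% of all genes tested. At so low a share, this 0 is not read as a result about these genes. Of 16 adaptors and nuclear partners of APP, 12 reached 1 TPM, led by the actin regulator Enah (42.2 ± 4.45 TPM, SD, n = 2), the adaptor Apba3 (35.4 ± 1.93) and the acetyltransferase Kat5 (11.1 ± 1.98). Enah and Apba3 thus stood near App and Apbb1. Among sorting and transport genes, 12 of 13 reached 1 TPM, led by the retromer subunit Vps29 (32.5 ± 3.98), the calsyntenin Clstn1 (29.7 ± 0.340) and the kinesin light chain Klc1 (27.7 ± 1.46).

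Of the proteases that cut APP or ITM2B, 13 of 14 reached 1 TPM. The leading ones were Furin, which cuts ITM2B (37.6 ± 2.33 TPM, SD, n = 2), and the gamma-secretase subunits Aph1a (36.4 ± 3.73) and Psenen (30.2 ± 2.01). Aph1b and Aph1c, and to a smaller extent Psenen and Aph1a, had fractional expected counts, so some reads were split between genes and these levels are less certain. Of 6 other BRICHOS genes, 3 reached 1 TPM. The ITM2B relatives Itm2c (18.9 ± 0.881) and Itm2a (2.85 ± 0.383) and the cartilage gene Cnmd (1.51 ± 0.413) stood far below Itm2b, and Sftpc was at 0 counts. Of 6 binding partners of THY1, 5 reached it, led by the adhesion receptor Adgre5 (13.8 ± 0.248), the integrin subunit Itgav (11.3 ± 0.557) and the proteoglycan Sdc4 (7.53 ± 0.132), all 3 above Thy1 itself.

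**Figure D5:**
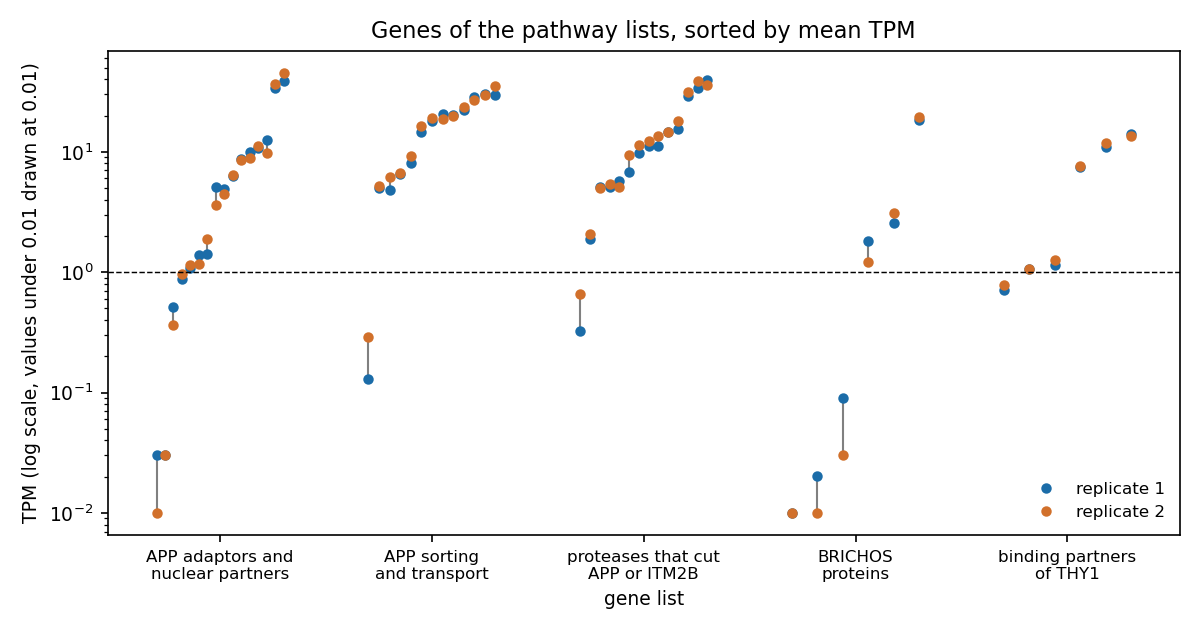
TPM (log axis) of the genes of the 5 pathway lists, sorted by mean level within each list, with 1 point per library and a line joining them; values under 0.01 TPM are drawn at 0.01 and the dashed line marks 1 TPM. In the sorting list 12 of 13 genes and in the protease list 13 of 14 lie above the line in both libraries.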

How the data were processed

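Total RNA of 2 heart libraries of 1 group was analysed from the deposited tables, on mm10 with GENCODE M21, and per the labels the kit was directional. TPM and expected counts, called estimated counts where quantified directly from reads, were deposited by the authors for genes and transcripts, per the file headers. Transcript shares in percent and a score for each TPM, its lower and upper credibility bounds, were deposited by the authors too. For the aligner, quantifiers, versions and strand setting: not given in the sources used here.

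TPM was rescaled to endogenous genes. Expected counts were rounded and scaled with TMM in edgeR 4.0.16 (R 4.3.3), with a prior count of 2 in log2 ratios. Libraries were called apart at 2-fold with a mean count of at least 50. Kinds of table were compared at 5 TPM or more with a pseudocount of 0.5, and 1 TPM in both libraries counted as detected. Exon content and sequences of the 79 annotated transcripts came from GENCODE M21. Intervals cover counting error only. The ratio step was tested on simulated data. Other steps ran in Python 3.11.15 (Biopython 1.88, matplotlib 3.10.9, numpy 2.4.6, scipy 1.17.1 and pandas 2.3.3).

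All 7 members were named, and of each pathway list the 3 genes with the highest mean TPM and any gene 2-fold apart. The members and lists were chosen with earlier results of these data known. Marker genes, the transcripts other than each member's main one and single genes at 0 were named after their values were seen. Alternatives were other scalings (DESeq2 1.42.0 size factors, library size, spike-in totals), TPM scaled to nuclear protein-coding genes, prior counts, minima, the direct tables and each library alone. Restricting levels to protein-coding transcripts, shares to transcripts that reach over an exon, and all settings for the skipped exons were chosen after seeing the data. Transgene transcripts and CAST alleles were not analysed here, and some genes are not reported here.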

Additional observations from a re-analysis of the deposited data

How the results depend on the processing

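With 2 libraries of 1 group, no paired analysis was possible because there was no second group to pair with. No member was 2-fold apart between libraries under any scaling, minimum, prior count or table tried, nor at 1.5-fold. The share of all genes is given for the main setting only (0.568% at 2-fold), so the other settings have no background beside them. Spike-in scaling put 6 members higher and 1 lower in replicate 2, in place of 3 and 4, and the direct tables put 2 higher and 5 lower. TPM scaled to nuclear protein-coding genes moved the members' levels to between 3.73 (Aplp1) and 775.4 TPM (Itm2b), with App at 118.0 and Thy1 at 13.0. At 5 TPM in place of 1 TPM, 32 of the 55 pathway genes passed. The share of all nuclear protein-coding genes is given at 1 TPM only, so this count has no background beside it. Of the 6 neighbours in the order of levels, 5 stayed apart on protein-coding transcripts, but App then lay above Apbb1, and 4 stayed apart in order on protein-coding transcripts of the direct tables, where Itm2b and Aplp2 overlapped. The Kunitz share of App kept within its SD in every setting. That of Aplp2 (61.1%) was 75.3% in the direct tables, 66.7% by expected counts, 79.2% over protein-coding transcripts, and 78.5% (direct tables, 77.3%) over transcripts that reach over the exon. The Aplp2 share skipping the 36-base exon (44.9%) was 64.3%, 56.8%, 57.8%, 58.0% and 66.6% under the same settings in turn. A transcript counted only in the alignment-based tables, Aplp2-207, is in the denominator of the Aplp2 shares of 61.1%, 66.7%, 44.9% and 56.8%. Shares over transcripts that reach over the exon leave it out. There the share skipping the 36-base exon was still 58.0%, against 66.6% in the direct tables. Other causes were not tested. Depth limits Thy1 and Aplp1 most, whose transcript shares rest on few counts.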
